A study of Rattus norvegicus with 14 samples.

Results

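The ovary of the fetal rat was compared between embryonic day 16 (E16) and embryonic day 13 (E13). The comparison rests on the 4 arrays titled as E16 ovary and E13 ovary, 2 for each age, out of 14 single-channel Affymetrix rat expression arrays, and on all 15866 probe sets that are not Affymetrix controls. The 2 arrays of E14 ovary were read as the point between. Each array measured total RNA from 1 pool of 20 to 40 whole gonads, extracted with Trizol, and the 2 pools of an age were independent. The labels name no treatment of the ovaries and no rat strain. Testes of E16 and E13 were used to ask whether a change in the ovary differed from that in the testis, and the remaining arrays (E14 testis and E13 testis cultured for 3 days) entered the fit only to estimate the spread.

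The early ovary is built from germ cells that have migrated into the gonadal ridge, supporting cells that become granulosa cells, stromal and mesenchymal cells, vessels and a covering surface epithelium. In rodents the germ cells of the ovary multiply as oogonia and then enter meiosis before birth, when the chromosomes pair along a protein scaffold, the synaptonemal complex. Wnt signals and the activin antagonist follistatin are known from mice as part of the supporting cell programme of the ovary. A pool of whole ovaries holds all of these cells, so fewer cells of a type and less RNA per cell cannot be told apart in any value below.

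The values are linear intensities scaled by the submitters to a common level, with ovary array medians between 59.5 and 64.2. The 2 arrays of a group correlated on the log2 scale at 0.953 for E16, 0.949 for E14 and 0.982 for E13, and the share of probe sets with a gap of 2-fold or more was 5.0% for the E16 pair, against 0.863% for the E13 pair. The form of the chip names placed both E13 arrays, E14 replicate 1 and E16 replicate 1 in 1 chip label period and E14 replicate 2 and E16 replicate 2 in another, and each E16 array correlated more closely with the E14 array of its own period (0.971 and 0.965) than with the other E16 array. The array labelled E16 ovary replicate 2 went against its label in 1 respect. Xist, the transcript of the inactive X chromosome, read 152 in E16 replicate 1 and 12.8 in E16 replicate 2, against 662 and 603 in the E13 arrays. Genes of the testis were near background in that array as in the others: Amh read 29.2 and 9.6 in E16 ovaries against 24.5 and 38.5 in E13 ovaries, and Hsd3b1 read 4.9 and 2.6 against 8.2 and 2.4. Xist also departed from the label in testis arrays, namely replicate 1 of E13, E14 and cultured E13 testis. It read 36.2 in E13 testis replicate 1 and 269 in E14 testis replicate 1, against 1.9 in replicate 2 of either age. In E14 ovaries Xist read 672 in replicate 1 and 224 in replicate 2. Replicate 2 of E13 testis, E14 testis and E14 ovary shares the chip label period of E16 ovary replicate 2, and in each of these groups it was the lower array. The cause was not tested. E16 ovary replicate 1 had the highest ratio of 3' to 5' actin probe sets of the ovary arrays, at 3.34, against 1.62 to 2.13 in the other 5. Calls that were lost with 1 E16 array left out are therefore given as such.

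The meiosis gene Sycp3, the matrix genes Mgp and Col6a3 and the metallothionein Mt3 were among the largest rises, and the chemokine Cxcl12, the homeobox gene Hoxa5 and the imprinted genes Grb10, Mest and Nnat were among the falls. In all, 141 of 15866 probe sets passed an adjusted p under 0.05 (limma with Benjamini-Hochberg adjustment, 0.889% of those tested). Of these, 73 were higher (0.46%) and 68 lower (0.429%) in E16 ovaries. Their log2 differences had a median of 1.39 among the rises (0.81 to 4.52) and of -1.31 among the falls (-4.42 to -0.82). The rises had a median intensity of 157 in E16 ovaries against 46.1 in E13 ovaries, and the falls a median of 53.0 in E16 ovaries against 193 in E13 ovaries. The arrays of the 2 ages did not overlap for any of the 141, as for 41.4% of all probe sets. A single gene symbol named 116 of them, which stood for 109 genes, and 1691 probe sets had an unadjusted p under 0.05.

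**Figure D1:**
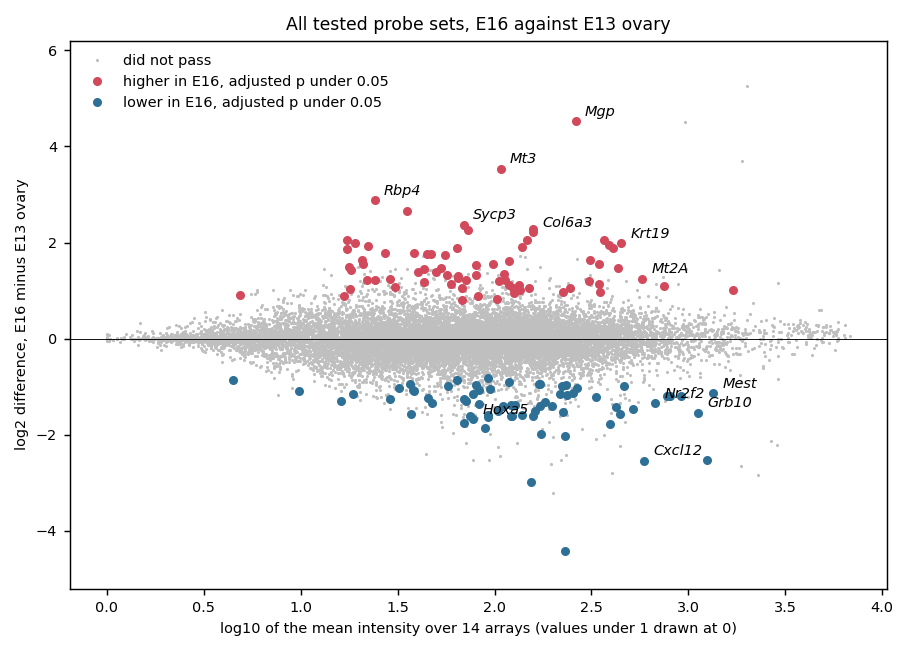
Log2 difference between E16 and E13 ovary (y axis) against log10 of the mean intensity over all 14 arrays (x axis), 1 point per probe set. Red points are the 73 probe sets that were higher in E16 and blue points the 68 that were lower, and Mgp, at 4.52, is the largest rise that passed.

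All 141 kept their direction when either E16 array was left out, which the lack of overlap between the ages had fixed in advance. Without E16 replicate 1, 46 of them passed, without E16 replicate 2, 36 of them, and 23 passed both ways; without E13 replicate 1 or 2, 8 and 12 probe sets passed. With the 6 ovary arrays alone, which leave 3 degrees of freedom, none passed (1589 at an unadjusted p under 0.05), and without the 4 arrays of the series whose sex marker departs from the label, E16 ovary replicate 2 among them, none passed (1536). A block for the chip label period gave 202 probe sets, 111 of the 141 among them.

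The meiosis genes Sycp3, Sycp2 and Stag3 rose. Sycp3, which encodes a lateral element protein of that complex, read 18.9 and 20.8 at E13, 50.4 and 76.6 at E14, and 153 and 188 at E16, a log2 difference between E16 and E13 of 2.37 (SE 0.27, limma, adjusted p = 0.00284). Both E16 arrays were above both E14 arrays, which were above both E13 arrays. Sycp2, the partner of Sycp3 in the lateral element, was near background in E13 ovaries, with 45.2 and 55.3 in E16 ovaries against 2.5 and 1.9 (log2 difference 1.86, limma, adjusted p = 0.0163). Stag3, a cohesin subunit of meiotic chromosomes, read 152 and 139 in E16 ovaries against 51.1 and 46.0 in E13 ovaries (1.32, limma, adjusted p = 0.0464).

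Of the 5 measured genes of the meiosis list these 3 rose and 0 fell, where 0.576% of all genes rose and 0.403% fell (by the brightest probe set of each gene, 60 and 42 of 10411, together 0.98%). Sycp1, the transverse filament protein, stayed dim at 9.4 and 5.3 in E16 ovaries against 4.2 and 6.2 in E13 ovaries, and Rad21, the mitotic cohesin subunit, did not pass (log2 difference -0.11). The list's median difference was 1.32, against 0.00097 over all genes. Sycp3 passed with either E16 array left out, with adjusted p = 0.0184 without replicate 1 and 0.0307 without replicate 2 (limma). Sycp2 did not, with 0.055 and 0.112, nor Stag3, with 0.15 and 0.178, and Stag3 also lost the call under the block for the chip label period (adjusted p = 0.068).

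The promoters of these 3 genes are shown because they moved together. Each line holds 300 bases of the RefSeq GRCr8 assembly, 250 before the annotated start and 50 after it, 5′ to 3′ on the gene's strand, with 2 motifs in capitals: TCCCGC, the core bound by E2F6 (a repressor of germ cell genes in mouse somatic cells), and CACGTG, an E-box. Sycp3 lies at chr7:24761226-24761525, plus strand, Sycp2 at chr3:185876443-185876742, minus strand and Stag3 at chr12:22398158-22398457, plus strand.
Sycp3: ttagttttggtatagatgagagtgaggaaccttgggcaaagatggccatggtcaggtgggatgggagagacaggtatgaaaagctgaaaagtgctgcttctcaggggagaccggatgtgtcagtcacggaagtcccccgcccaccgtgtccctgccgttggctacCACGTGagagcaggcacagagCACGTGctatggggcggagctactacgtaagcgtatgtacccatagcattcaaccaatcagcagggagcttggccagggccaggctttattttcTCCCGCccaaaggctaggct
Sycp2: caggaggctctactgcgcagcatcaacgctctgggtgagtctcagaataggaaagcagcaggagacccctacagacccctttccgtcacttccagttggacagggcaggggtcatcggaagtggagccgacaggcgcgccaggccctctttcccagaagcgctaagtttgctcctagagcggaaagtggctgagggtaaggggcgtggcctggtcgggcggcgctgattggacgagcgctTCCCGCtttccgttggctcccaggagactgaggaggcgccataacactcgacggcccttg
Stag3: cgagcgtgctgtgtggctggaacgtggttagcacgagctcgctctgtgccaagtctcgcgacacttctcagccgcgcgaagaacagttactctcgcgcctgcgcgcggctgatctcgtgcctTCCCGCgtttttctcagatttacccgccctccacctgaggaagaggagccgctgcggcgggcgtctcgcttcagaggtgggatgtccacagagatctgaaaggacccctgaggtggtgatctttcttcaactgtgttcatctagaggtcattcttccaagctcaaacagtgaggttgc
Searched on both strands, the windows held TCCCGC once each, starting at base 281 of the Sycp3 window, 241 of Sycp2 and 123 of Stag3, counted from the 5′ end. The same letters are in 18.7% of the 33469 rat promoter windows, in the window of Sycp1, which did not pass, and in 41.7% of the 36 windows of genes that fell, so they are not particular to the genes that rose. CACGTG started at bases 166 and 187 of the Sycp3 window, was not in the other two, and is in 6.42% of all windows.

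Of the 10 measured genes of the broader germ cell list 0 rose and 0 fell, with a median difference of -0.07. As 0.98% of all genes passed, 0 calls among 10 genes do not set this list apart. At an unadjusted p under 0.05 (limma) 2 members were higher and 0 lower, and Sox2, Zp1 and Zp3 were below 20 in all E16 and E13 arrays. Kit, the stem cell factor receptor, read 31.6 and 46.5 in E16 ovaries against 25.7 and 60.3 in E13 ovaries. The E13 arrays lay on either side of both E16 values. Zp3, a coat glycoprotein of the later egg, stayed dim at 14.4 and 14.8 in E16 ovaries against 3.0 and 3.2 in E13 ovaries (log2 difference 0.68, limma, adjusted p = 0.147). Dazl, Ddx4, Pou5f1 and Stra8 had no probe set with a matching name and are not analysed here. Among genes singled out after their values were seen, Asz1 and Tdrd7, both of the germ cell granules where piRNAs are handled, and Tex101, a surface protein of germ cells, also rose. Asz1 read 71.5 and 80.4 in E16 ovaries against 12.6 and 9.5 in E13 ovaries (1.77, limma, adjusted p = 0.0336), and Tex101 read 379 and 285 against 79.8 and 72.9 (1.90, adjusted p = 0.0241). These 3 lost the call with either E16 array left out, Asz1 with adjusted p of 0.0957 and 0.18, Tdrd7 with 0.153 and 0.18 and Tex101 with 0.105 and 0.074, and Asz1 (0.0518) and Tdrd7 (0.0689) also with the chip label period as a block.

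**Figure D2:**
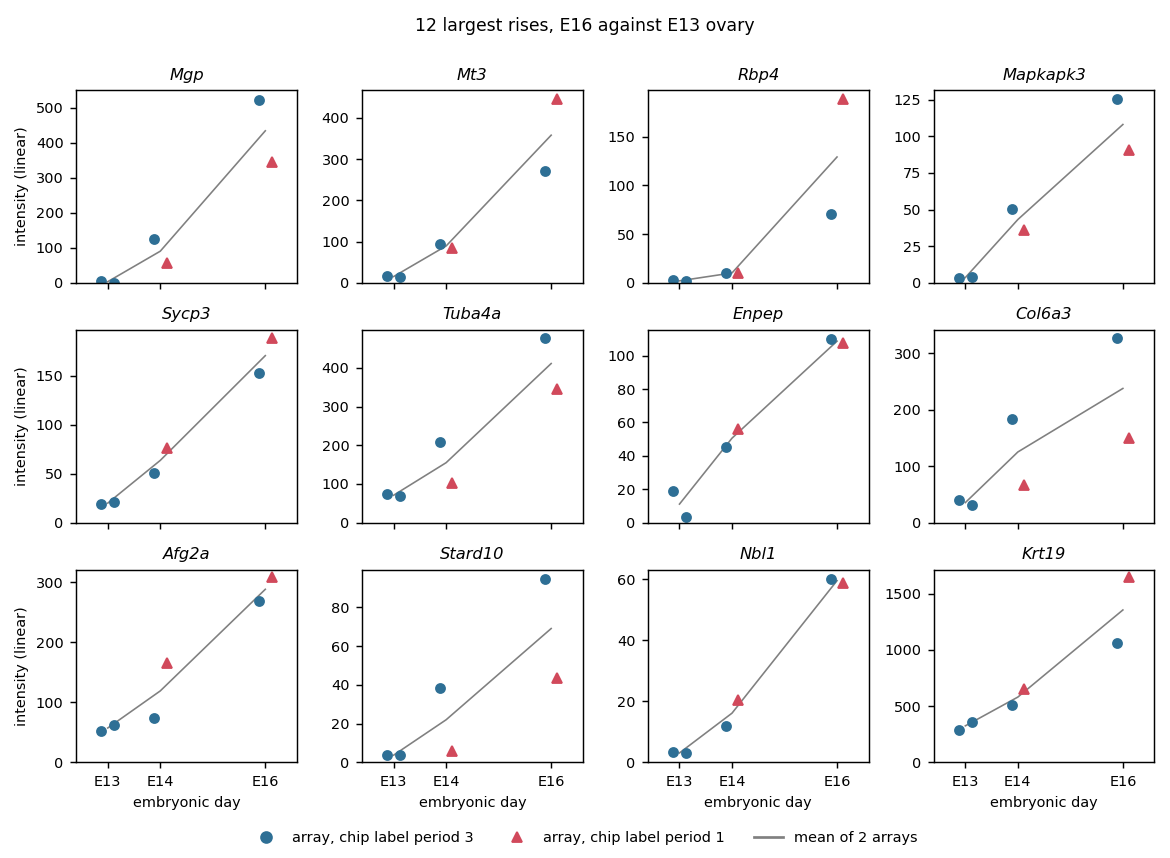
Intensity of the 12 genes with the largest rises in each of the 6 ovary arrays (y axis, linear scale, a separate range for each gene) by embryonic day (x axis); points are arrays, circles and triangles mark the 2 chip label periods, and the line joins the means of 2 arrays. In each panel both E16 arrays lie above both E13 arrays, as the choice of these genes requires, and the mean at E14 lies between.

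The largest rise that passed was that of Mgp, the matrix Gla protein that binds calcium and restrains mineralisation. It read 5.8 and 0.9 at E13, 125 and 55.2 at E14, and 523 and 345 at E16, with a log2 difference between E16 and E13 of 4.52 (SE 0.39, limma, adjusted p = 0.00187). The E13 arrays were near the floor of the assay, and the ages did not overlap. Col6a3, a chain of the collagen VI microfibril, read 327 and 149 in E16 ovaries against 39.7 and 31.1 in E13 ovaries (2.22, adjusted p = 0.0294). Eln, which encodes elastin, read 155 and 149 in E16 ovaries against 32.5 and 36.8 in E13 ovaries (1.73, adjusted p = 0.00419). Its E14 arrays, at 31.5 and 52.3, overlapped those of E13. Igfbp7, a secreted binding protein of insulin-like growth factors, read 449 and 257 in E16 ovaries against 71.6 and 81.2 in E13 ovaries (1.95, adjusted p = 0.0271).

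Most genes of the matrix list did not pass, as was so for all genes, of which 0.576% rose and 0.403% fell. By the brightest probe set of each gene, 2 of 52 measured genes of the extracellular matrix list rose (Mgp and Eln), 1 fell and 49 did not pass. The list does not hold Col6a3, and its median difference was 0.02. The member that fell was Hapln1, a link protein that ties hyaluronan to proteoglycans, with 37.0 and 31.7 in E16 ovaries against 92.9 and 115 in E13 ovaries (-1.25, limma, adjusted p = 0.0139). A dimmer probe set of Vcan, also on the list, fell, with 27.6 and 25.6 in E16 ovaries against 97.3 and 89.9 in E13 ovaries (-1.36, limma, adjusted p = 0.043). Postn, which encodes periostin, was higher in both E16 arrays, 1247 and 1518 against 584 and 656 in E13 ovaries, without passing (1.13, adjusted p = 0.071). Mgp and Eln passed with either E16 array left out, and Col6a3 lost the call without replicate 1 (adjusted p = 0.125), as did Igfbp7 (0.121); Hapln1 lost it with either one left out (0.0515 and 0.0987). Of 15 genes of the insulin-like growth factor list Igfbp7 alone passed, and Igf2 read 1630 and 1888 in E16 ovaries against 2043 and 1958 in E13 ovaries.

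The metallothioneins Mt3 and Mt2A and the retinol carrier Rbp4 rose as well. Mt3, a metallothionein that binds zinc and copper, read 15.7 and 14.8 at E13, 95.3 and 83.6 at E14, and 271 and 445 at E16 (log2 difference between E16 and E13 3.54, SE 0.35, limma, adjusted p = 0.00238). The 3 ages did not overlap. Mt2A, the abundant metallothionein, read 561 and 623 at E13, 819 and 832 at E14, and 1468 and 1392 at E16 (1.25, adjusted p = 0.0402). The other 2 measured genes of the metallothionein list, Mt1 and the zinc exporter Slc30a1, did not pass, and Mt1 differed between the E16 arrays (2.7 and 33.0). Rbp4, the carrier of retinol in blood, read 70.1 and 188 in E16 ovaries against 2.7 and 1.4 in E13 ovaries (2.88, adjusted p = 0.00503), and its E14 arrays were still at 9.7 and 10.6. Of 20 genes of the retinoic acid list Rbp4 rose and Crabp1, a cytoplasmic binder of retinoic acid, fell, with 201 and 151 in E16 ovaries against 350 and 370 in E13 ovaries (-0.98, adjusted p = 0.0464). Mt3 and Rbp4 passed with either E16 array left out. Mt2A and Crabp1 lost the call with either one left out and under the block for the chip label period, where their adjusted p was 0.068 and 0.0527.

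The promoters of the 2 metallothioneins are shown because both genes rose and sit on chromosome 19, with the core of the metal response element in capitals, searched on both strands as TGCACNC and TGCGCNC. The windows are RefSeq GRCr8, chr19:10856031-10856330, minus strand for Mt3 and chr19:10838659-10838958, minus strand for Mt2A.
Mt3: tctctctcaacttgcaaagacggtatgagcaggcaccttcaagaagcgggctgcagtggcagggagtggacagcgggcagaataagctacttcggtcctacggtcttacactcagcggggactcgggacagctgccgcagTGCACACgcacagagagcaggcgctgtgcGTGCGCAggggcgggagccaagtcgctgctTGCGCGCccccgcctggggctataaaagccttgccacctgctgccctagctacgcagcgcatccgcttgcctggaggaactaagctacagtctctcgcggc
Mt2A: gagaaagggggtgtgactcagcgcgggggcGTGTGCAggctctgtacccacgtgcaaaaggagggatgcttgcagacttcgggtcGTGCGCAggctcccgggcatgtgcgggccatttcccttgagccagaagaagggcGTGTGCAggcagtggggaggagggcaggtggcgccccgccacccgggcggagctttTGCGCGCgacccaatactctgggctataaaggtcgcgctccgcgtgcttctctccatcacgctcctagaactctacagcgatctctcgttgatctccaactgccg
The Mt3 window held 3 matches and the Mt2A window 4. All 4 measured genes of the metallothionein list with a window held at least 1, the 2 that did not pass included, and 24.2% of all 33469 windows did, as did 44.9% of the 49 windows of genes that rose and 27.8% of the 36 of genes that fell; these shares were not tested.

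The other genes among the 12 largest rises have varied roles. Krt19, a keratin of simple epithelia that is present in the ovarian surface epithelium, read 289 and 358 at E13, 507 and 652 at E14, and 1065 and 1644 at E16 (log2 difference between E16 and E13 1.99, limma, adjusted p = 0.0289). It was the 1 gene of 18 on the surface epithelium and mesothelium list that rose, and the list's median was -0.14. Tuba4a, an alpha-tubulin, read 477 and 345 in E16 ovaries against 72.9 and 68.3 in E13 ovaries (2.29, adjusted p = 0.00419). Enpep, the aminopeptidase that cuts angiotensin II, read 110 and 107 against 18.9 and 3.2 (2.27, adjusted p = 0.00284), while a second, dimmer probe set for it showed -0.14. Mapkapk3, a kinase downstream of p38, read 125 and 90.9 in E16 ovaries against 3.1 and 4.1 in E13 ovaries (2.65, adjusted p = 0.00284). Nbl1, a secreted antagonist of bone morphogenetic proteins, read 60.3 and 58.9 against 3.2 and 2.9 (1.99, adjusted p = 0.00284).

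The 2 remaining genes of the 12 were Afg2a, an ATPase, with 269 and 308 in E16 ovaries against 52.0 and 62.2 in E13 ovaries, and Stard10, a lipid transfer protein, with 94.9 and 43.3 against 3.8 and 3.5; a second probe set of Stard10 was below 5 in all 4 arrays. Mapkapk3, Tuba4a, Enpep and Nbl1 passed with either E16 array left out. Krt19 and Afg2a lost the call with either one left out (adjusted p between 0.0522 and 0.19), and Stard10 without replicate 1 (0.139).

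Cxcl12 had the largest fall that passed by the brightest probe set of a gene. It encodes the chemokine that draws migrating germ cells to the gonad in the mouse. It read 1106 and 1146 at E13, 689 and 364 at E14, and 243 and 132 at E16 (log2 difference between E16 and E13 -2.54, SE 0.32, limma, adjusted p = 0.00543). The 3 ages did not overlap, and its 2 other probe sets fell too, with differences of -1.21 and -1.76. Cxcl12 passed with either E16 array left out. Its receptor Cxcr4 read 165 and 191 in E16 ovaries against 108 and 115 in E13 ovaries and did not pass (adjusted p = 0.129).

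Dusp6, Gucy1b1, Lpar1 and Cga were also among the 12 largest falls. Dusp6, a phosphatase that restrains ERK downstream of growth factors, fell by 2.99 on the log2 scale with one probe set (limma, adjusted p = 0.0289) and by 2.04 with another (0.0203); its brightest, at 177 and 78.5 in E16 ovaries against 541 and 508 in E13 ovaries, did not pass (-2.0, 0.101). The probe set with the largest difference read 64.4 and 3.7 in E16 ovaries against 264 and 339 in E13 ovaries, so its size rests on E16 replicate 2, and without that array its difference was -1.97 (adjusted p = 0.0987). The other probe set that passed lost the call with either E16 array left out (0.0523 and 0.144). Gucy1b1, the subunit of the nitric oxide receptor that makes cyclic GMP, read 40.3 and 41.8 in E16 ovaries against 145 and 175 in E13 ovaries (-1.62, adjusted p = 0.0133). Lpar1, a receptor for lysophosphatidic acid, read 83.6 and 47.6 against 226 and 226 (-1.60, adjusted p = 0.0436), and its second probe set did not pass. Cga, the alpha subunit shared by the glycoprotein hormones, read 38.7 and 40.1 in E16 ovaries against 142 and 165 in E13 ovaries (-1.61, adjusted p = 0.00284). Of these genes Cga passed with either E16 array left out; Gucy1b1 lost the call with either one left out (0.0601 and 0.074), as did Lpar1 (0.0541 and 0.254).

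Hoxa5, Tcf21, Nr2f2 and Nr0b1 are 4 of the transcription factors among the falls, and 2 of them, Tcf21 and Nr2f2, are early gonad factors. Hoxa5, a homeobox gene, read 32.1 and 28.9 in E16 ovaries against 128 and 138 in E13 ovaries (log2 difference -1.68, limma, adjusted p = 0.0243). Tcf21, a basic helix-loop-helix factor of gonadal and kidney mesenchyme, read 104 and 139 against 324 and 468 (-1.57, adjusted p = 0.0262). Nr2f2, a nuclear receptor of interstitial progenitors, read 390 and 230 in E16 ovaries against 793 and 772 in E13 ovaries (-1.34, adjusted p = 0.0464), and a dimmer probe set showed -2.0 (0.0546). Nr0b1, a nuclear receptor that represses steroidogenic genes, read 31.3 and 59.4 against 144 and 162 (-1.50, adjusted p = 0.024). The groups did not overlap for any of these 4, as for all 141 calls and for 41.4% of all probe sets. Of 13 measured early gonad factors Tcf21 and Nr2f2 fell, 0 rose and 11 did not pass, with a median of -0.35. Wt1 read 669 and 769 in E16 ovaries against 828 and 1032 in E13 ovaries (-0.36, adjusted p = 0.598), and Nr5a1 was dim, at 1.3 and 27.9 against 12.3 and 7.5.

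Of these 4 genes none passed both without E16 replicate 1 and without replicate 2: Nr2f2 passed without replicate 1 (adjusted p = 0.0359), Nr0b1 without replicate 2 (0.0272), and Hoxa5 and Tcf21 in neither case (0.0740 to 0.14).

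**Figure D3:**
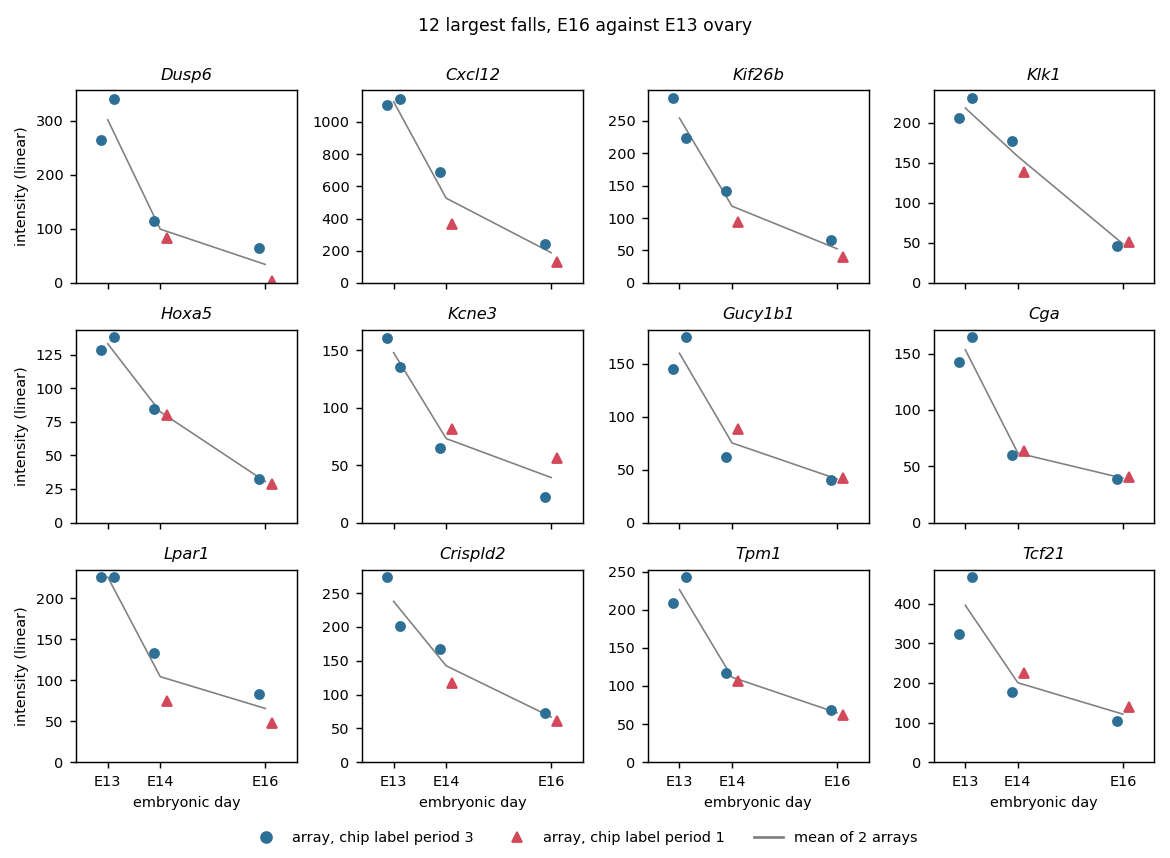
Intensity of the 12 genes with the largest falls in each of the 6 ovary arrays (y axis, linear scale, a separate range for each gene, drawn for the probe set with the largest difference that passed) by embryonic day (x axis); points are arrays, circles and triangles mark the 2 chip label periods, and the line joins the means of 2 arrays. In each panel both E16 arrays lie below both E13 arrays, as the choice of these genes requires; Dusp6 read 64.4 and 3.7 in E16 ovaries.

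Genes under parental imprinting fell or did not pass. Of 21 measured imprinted genes 3 fell, 0 rose and 18 did not pass, with a median of -0.22. Over all genes, by the brightest probe set, 0.403% fell and 0.576% rose. Grb10, an adaptor that restrains insulin receptor signalling, read 1582 and 1497 at E13, 842 and 952 at E14, and 449 and 596 at E16 (log2 difference between E16 and E13 -1.54, SE 0.18, limma, adjusted p = 0.00361). The 3 ages did not overlap. Mest read 877 and 879 in E16 ovaries against 1870 and 2038 in E13 ovaries (-1.14, adjusted p = 0.0139), and Nnat, a small membrane protein of calcium stores, read 298 and 383 against 709 and 876 (-1.18, adjusted p = 0.0243). Cdkn1c, the imprinted inhibitor of cyclin-dependent kinases, read 498 and 437 in E16 ovaries against 1192 and 1015 in E13 ovaries without passing (-1.21, adjusted p = 0.081; 0.0308 with the chip label period as a block). Grb10 passed with either E16 array left out, and Mest and Nnat lost the call with either one left out (adjusted p between 0.06 and 0.109).

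The remaining genes among the 12 largest falls were Klk1, Kcne3, Crispld2, Kif26b and Tpm1. Klk1, a tissue kallikrein, read 46.6 and 50.9 in E16 ovaries against 206 and 232 in E13 ovaries (log2 difference -1.86, limma, adjusted p = 0.0109), with the E14 arrays at 178 and 139. Kcne3, a potassium channel subunit, read 22.2 and 56.2 against 161 and 135 (-1.64, adjusted p = 0.0332). Crispld2, a secreted protein, read 72.2 and 61.6 in E16 ovaries against 274 and 202 in E13 ovaries (-1.60, adjusted p = 0.00946). Kif26b, a kinesin-like protein known from kidney development in mice, fell with 1 of its 4 probe sets (-1.99, adjusted p = 0.0259), while its brightest missed the threshold (-1.88, 0.129). Tpm1, tropomyosin, fell with 2 of its 6 probe sets, by 1.58 and 0.95 on the log2 scale, and its brightest showed -0.66 (0.184), so its probe sets disagree. The lead probe set of Tpm1 passed with either E16 array left out, whereas Klk1 (0.0575 and 0.0634) and Kif26b (0.0519 and 0.176) lost the call with either one left out, Crispld2 lost the call without replicate 2 (0.074) and Kcne3 without replicate 1 (0.125). The largest fall of all, -4.42 (adjusted p = 0.0019), belonged to a probe set without a gene symbol.

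Of 12 measured genes of the list for supporting cells of the ovary 0 rose, 1 fell (Nr0b1) and 11 did not pass, with a median of 0.15. As 0.576% of all genes rose and 0.403% fell, 0 rises among 12 genes do not set this list apart. At an unadjusted p under 0.05 (limma) 3 members were higher and 1 lower, as were 656 and 546 of all 10411 genes. Fst, follistatin, the secreted antagonist of activin, read 146 and 123 at E13, 442 and 309 at E14, and 449 and 366 at E16. Both later ages lay above both E13 arrays and overlapped each other. The difference between E16 and E13 was 1.49 (SE 0.39, limma, adjusted p = 0.125, and 0.0286 with the chip label period as a block). A second, dimmer probe set of Fst read 97.2 and 79.8 at E13, 532.7 and 140.6 at E14, and 652.5 and 159.5 at E16. Its later arrays were thus split by chip label period, and it did not pass (1.72, limma, adjusted p = 0.354). Wnt4 read 411 and 87.5 in E16 ovaries against 132 and 150 in E13 ovaries (0.43, adjusted p = 0.922), and the E14 arrays were split in the same way, with the array of each period close to the E16 array of that period (356 and 88.6). Amhr2, the receptor of anti-Müllerian hormone, read 871 and 824 in E16 ovaries against 592 and 563 in E13 ovaries (0.54, adjusted p = 0.302). Bmp2, Lgr5 and Kitlg differed by -0.52, 0.21 and 0.09 and did not pass.

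Most genes of the signalling lists did not pass, where 0.98% of all genes passed by the brightest probe set. Of 26 measured Wnt genes 0 rose and 1 fell, the secreted antagonist Frzb, with 26.8 and 30.7 in E16 ovaries against 98.2 and 90.1 in E13 ovaries (log2 difference -1.30, limma, adjusted p = 0.0203; a second probe set -0.99, 0.0331). Of 36 genes of the activin, BMP and TGF-beta list Nbl1 rose and Bmp4, a ligand, fell, with 82.4 and 60.5 in E16 ovaries against 159 and 168 in E13 ovaries (-1.05, adjusted p = 0.0329). Of 18 measured Notch genes 0 passed. Frzb and Bmp4 lost the call with either E16 array left out, Frzb with adjusted p of 0.088 and 0.0896 and Bmp4 with 0.0519 and 0.214.

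Steroid and prostaglandin genes gave 2 rises, where 0.576% of all genes rose by the brightest probe set. Hsd17b2, which inactivates oestradiol and testosterone, read 43.9 and 67.9 in E16 ovaries against 11.2 and 5.2 in E13 ovaries (log2 difference 1.56, limma, adjusted p = 0.0205), the 1 member of 22 on the steroid list that passed. Cyp19a1, the aromatase, was dim at 19.7 and 14.1 against 5.2 and 11 and did not pass. Ptgds, a prostaglandin D synthase that is also a product of Sertoli cells, read 67.4 and 115 in E16 ovaries against 22.9 and 21.3 in E13 ovaries (1.46, adjusted p = 0.0262), the 1 member of 20 on the Sertoli list that passed. Both lost the call without E16 replicate 2 (adjusted p = 0.151 and 0.178).

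Most genes of the growth and housekeeping lists did not pass either, where 0.98% of all genes passed by the brightest probe set. Of 34 cell cycle genes 0 passed, with a median of -0.18. Mki67, a marker of cycling cells, read 490 and 456 in E16 ovaries against 446 and 355 in E13 ovaries (log2 difference 0.24, limma, adjusted p = 0.748). Ccnd2 differed between the E16 arrays (234 and 37.9) and did not pass. Of 40 mitochondrial respiration genes 0 passed, with a median of 0.22, and of 40 cytosolic ribosomal protein genes 0 passed, with a median of 0.15 that turned to -0.0058 after quantile normalization and to -0.08 with the chip label period as a block. Of 25 genes of the hypoxia and glycolysis list the glucose transporter Slc2a3 fell, with 40.8 and 42.5 in E16 ovaries against 96.7 and 80.0 in E13 ovaries (-0.85, adjusted p = 0.0453), a call lost with either E16 array left out (0.139 and 0.182). The lists of 19 cholesterol synthesis, 14 smooth muscle and 30 stress and immediate early genes gave 0 calls by the brightest probe set.

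**Figure D4:**
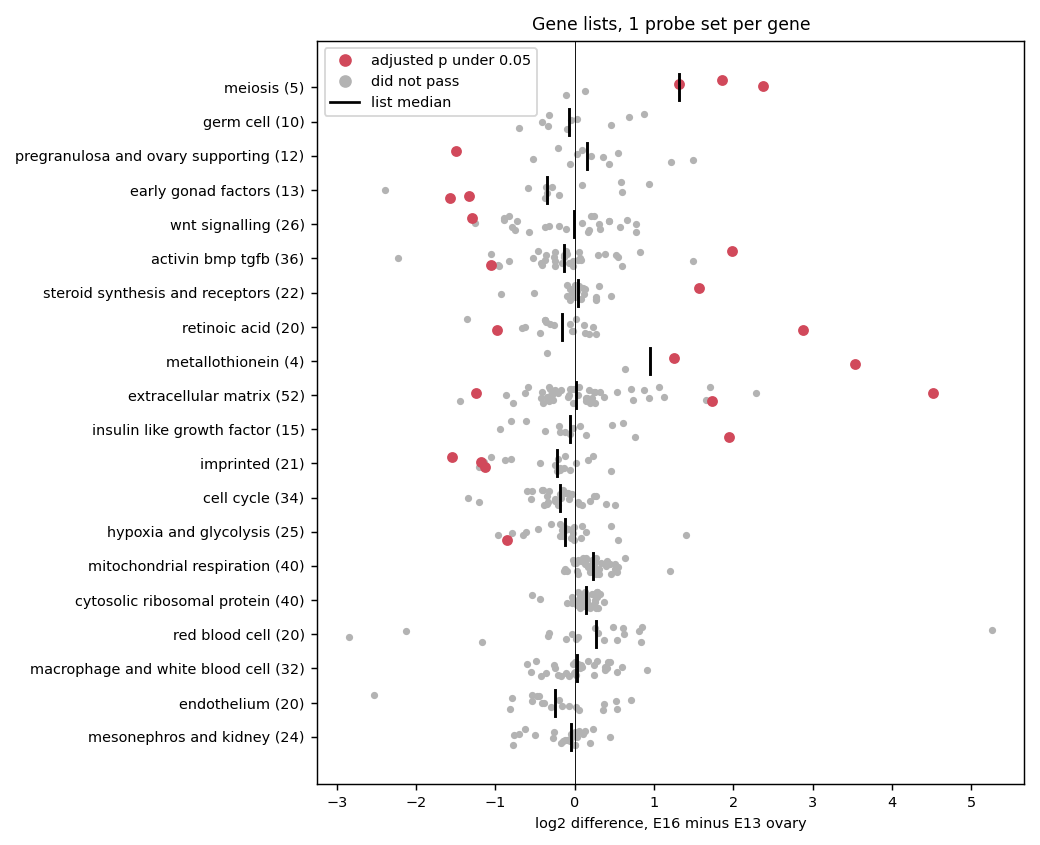
Log2 difference between E16 and E13 ovary (x axis) for the measured genes of 20 lists (rows, with the number of genes measured), by the brightest probe set of each gene; red points passed an adjusted p under 0.05, grey points did not, and the bar is the list's median. The meiosis list has its median at 1.32 with 3 of 5 genes passing, and the metallothionein list at 0.94, and the other lists have medians between -0.35 and 0.27.

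Markers of other cells that a dissected ovary could carry were measured beside these results, and their part in them was not tested. By the brightest probe set 0.98% of all genes passed, so 0 calls in a short list do not set it apart. Of 20 red blood cell genes 0 passed, though the globins differed widely in value: Hbb, an adult beta globin, read 5526 and 3943 in E16 ovaries against 114 and 98.2 in E13 ovaries (log2 difference 5.27, limma, adjusted p = 0.162), and the embryonic globin Hbz read 899 and 171 against 3005 and 2898. The summed level of that list was 13760 and 10080 in E16 ovaries against 11790 and 12060 in E13 ovaries. Of 32 macrophage and white blood cell genes 0 passed, with sums of 1752 and 2007 against 1669 and 1684, and Ptprc was below 20 in all 4 arrays. Of 20 endothelial genes 0 passed, with sums of 1796 and 1186 in E16 ovaries against 1963 and 1727 in E13 ovaries.

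Mesonephros and kidney markers, which could follow the gonad in dissection, gave 0 calls among 24 genes, with sums of 721 and 772 in E16 ovaries against 874 and 821 in E13 ovaries. The tubule markers Aqp2 and Umod were below 20 in all 4 arrays. Of 6 adrenal genes Nr0b1 fell, with Cyp21a1 and Cyp11b1 below 20 throughout, and of 37 neuronal and chromaffin genes 0 passed, with sums of 1861 and 1795 against 1895 and 1745. None of these lists had a member at 0 in both E16 arrays.

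Neither step alone gave a call. With E14 as the point between, 0 of 15866 probe sets passed between E14 and E13 (679 at an unadjusted p under 0.05) and 0 between E16 and E14 (975), by the same limma fit. The 73 rises had a median intensity of 46.1 at E13, 72.2 at E14 and 157 at E16, and the 68 falls 193, 105 and 53.0. A few genes differed by step in their values alone: Klk1 and Nnat (698 and 696 at E14) were nearer at E14 to E13 than to E16, Eln at E14 overlapped E13, and Fst at E14 overlapped E16. The difference between the steps was not tested.

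Testes of the same ages were used to test whether a change was larger or smaller in the ovary. E13 testis replicate 1 was among the arrays whose Xist departs from the label. Xist read 36.2 in that array against 1.9 in replicate 2, while Sry read 163 and 185. Between E16 and E13, 150 probe sets passed in the testis (0.945%), 112 higher (0.706%) and 38 lower (0.24%), and 14 of the ovary's 73 rises rose there too (19.2% of the ovary's and 12.5% of the testis's rises), as 10 of its 68 falls fell there (14.7% and 26.3%). Mgp was one of the shared rises, with 422 and 742 in E16 testes against 20.6 and 6.3 in E13 testes. The change in the ovary minus that in the testis passed for 23 probe sets (0.145%), 8 of them positive (0.0504%) and 15 negative (0.0945%).

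Of those 23, 6 had also passed in the ovary. Mt2A rose in the ovary and fell in the testis, where it read 131 and 206 at E16 against 502 and 566 at E13, and the 2 changes differed by 2.85 (SE 0.34, limma, adjusted p = 0.00905). Rbp4 stayed at 4.8 and 2.4 in E16 testes against 9.2 and 5.3 in E13 testes, a difference of changes of 3.12 (adjusted p = 0.0496). Fbp2, a gluconeogenic phosphatase of muscle, read 45.0 and 45.4 in E16 ovaries against 9.6 and 4.4 in E13 ovaries, and 9.1 and 8.6 in E16 testes against 16.1 and 36.3 in E13 testes (2.14, adjusted p = 0.0496). Slc4a4, a sodium bicarbonate cotransporter, had a difference of 1.52 (adjusted p = 0.0496). Npr3, the clearance receptor of natriuretic peptides, and Susd3, a membrane protein, fell in the ovary with differences of -2.01 (0.0141) and -1.73 (0.0292). In the ovary alone, Fbp2, Npr3 and Susd3 lost the call with either E16 array left out (adjusted p between 0.0563 and 0.14) and Slc4a4 without replicate 2 (0.0634). Without E16 ovary replicate 1 the comparison with the testis gave 12 probe sets in all, and without replicate 2 it gave 7.

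**Figure D5:**
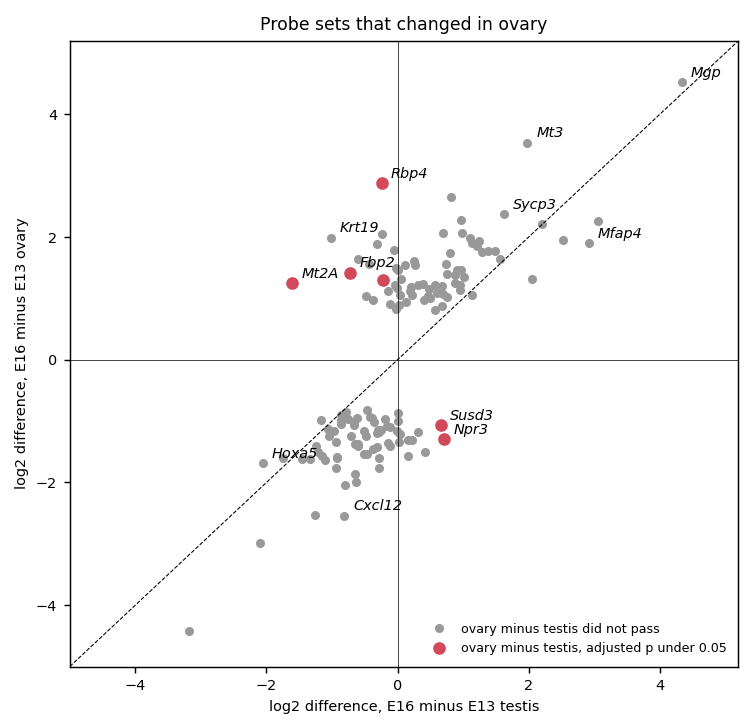
Log2 difference between E16 and E13 in ovary (y axis) against that in testis (x axis) for the 141 probe sets that passed in the ovary; the dashed line marks equal change, and red points are the 6 whose ovary change minus testis change passed. Mt2A lies left of 0, since it fell in the testis, and Mgp lies near the dashed line.

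Some genes changed differently in the 2 gonads without passing in the ovary itself. Amhr2 read 173 and 171 in E16 testes against 437 and 477 in E13 testes (ovary change minus testis change 1.87, SE 0.27, limma, adjusted p = 0.0296). Postn read 255 and 253 in E16 testes against 538 and 559 in E13 testes (2.19, adjusted p = 0.0496). Cxcr4, singled out after its values were seen, read 50.2 and 46.9 in E16 testes against 132 and 123 in E13 testes (1.76, adjusted p = 0.0141). Krt19 read 147 and 186 in E16 testes against 325 and 380 in E13 testes and missed the threshold (3.01, adjusted p = 0.0532). The 3 meiosis genes that rose did not pass this test: for Sycp3, which read 98.1 and 130 in E16 testes against 17.8 and 35.9 in E13 testes, the difference of changes was 0.75 (adjusted p = 0.804). It was 0.64 for Sycp2 (0.881) and -0.73 for Stag3 (0.804), which rose more in the testis. Between E16 and E13 testis, Sycp3 (1.63, limma, adjusted p = 0.0168) and Stag3 (2.05, 0.00456) passed as rises too, and Sycp2 did not (1.22, 0.0948).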

How the data were processed

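Per the labels, each array held biotin-labelled target made by standard Affymetrix procedures. The authors deposited 1 linear intensity for every probe set of an array; how probes were summarised is not given in the sources used here, and a mean of 125 after trimming 2% at each end on every array shows scaling by the authors. Of 15923 probe sets 57 controls were left out; 12783 had 1 gene symbol from the platform annotation, 312 several and 2771 none. Symbols were checked against RefSeq GRCr8 (12748 identifiers found, 0 changed).

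Values were analysed as log2(value + 16), which understates changes of dim probe sets. All 14 arrays entered one limma model (version 3.58.1, R 4.3.3) with a mean for each of 7 groups, 7 residual and 4.16 prior degrees of freedom and the Benjamini-Hochberg adjustment over 15866 probe sets. The number of arrays limits the precision. The brightest probe set stands for its gene. Named genes were the 12 largest rises and falls that passed without overlap, up to 3 passing members of each list in each direction, and a fixed set of label and cell type checks; for the other comparisons, the 5 largest each way. The members and the lists were chosen with earlier results of these data known. Chip label periods were read from the form of the chip names and may not be hybridisation dates. Deviations of equal replicate numbers correlated at 0.0655 between E16 and E13 and 0.00146 between E14 and E13, so the numbers were not taken as pairs; they correlated at 0.530 between E16 and E14, where equal numbers share a chip label period. The fit was tested on simulated data.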

Additional observations from a re-analysis of the deposited data

Results flagged for a closer look

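For 14 named genes the change from E13 to E16 differed between ovary and testis by the test of the difference itself (limma, adjusted p under 0.05 over all probe sets). The ovary change minus the testis change was 3.12 for Rbp4, 2.85 for Mt2A, 2.19 for Postn, 2.14 for Fbp2, 2.12 for Sry, 1.87 for Amhr2 and 1.52 for Slc4a4. It was -6.09 for Cyp17a1, -5.91 for Cpa1, -5.25 for Hsd3b1, -3.93 for Cyp11a1, -3.92 for Amh, -2.01 for Npr3 and -1.73 for Susd3. Cyp17a1, Cpa1, Hsd3b1, Cyp11a1, Amh and Sry passed between E16 and E13 in the testis and not in the ovary, where Hsd3b1 read 4.9 and 2.6 at E16 against 8.2 and 2.4 at E13, while it read 1432 and 2202 in E16 testes against 36.1 and 33.0 in E13 testes. Sry read 28.2 and 18.5 in E16 testes against 163 and 185 in E13 testes.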

How the results depend on the processing

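With 2 arrays per age, all adjusted p-values rest on a spread shared with the testis groups, and dim probe sets are limited by the floor of the assay. Against 141 probe sets for E16 against E13, an offset of 1 gave 60, the 4 arrays alone 4, the 6 ovary arrays alone 0 (1589 unadjusted), the replicate block 276, and removal of the 4 arrays whose sex marker departs from the label 0 (1536). Leaving out 1 array gave 8 to 145; in an alternative added after seeing the data, ovary arrays of 1 chip label period alone gave 48. With an offset of 64 the count was 209 and with the chip label period as a block 202. For the change in ovary minus that in testis, 23 probe sets became 8 with an offset of 1, 15 with a robust prior, 46 with the period block, 45 with chip batch as a random block, 0 without the 4 arrays (1118), 5 with 1 period, and 2 to 20 when 1 array was left out; the replicate block gave 28. E14 against E13 gave 3 with an offset of 1 and 2 with the period block; E16 against E14 gave 1 with an offset of 64, the 6 ovary arrays, the period block, the random batch block and without E16 ovary replicate 1.

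Reversals in sign were seen only for genes that had not passed. When 1 array was left out, Wnt4 ranged over -0.60 to 1.45, Kitlg over -0.39 to 0.57, Nr5a1 over -0.58 to 0.77, Kit over -0.48 to 0.39, Hsd3b1 over -0.30 to 0.10, Sry over -0.38 to 0.057 and Cyp17a1 over -0.52 to 0.78. With the period block Kitlg was -0.26, Nr5a1 -0.23 and Kit 0.036; without the 4 arrays, as in 1 period alone, Kitlg was -0.39 and Nr5a1 -0.58. An offset of 1 gave -0.38 for Nr5a1 and -0.0945 for Cyp17a1, quantile normalization 0.028 for Kit and 0.0016 for Cyp11a1, and the batch block 0.090 for Kit and -0.0948 for Cyp17a1. The cause was not tested.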

Other observations

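Genes outside the lists, singled out after their values were seen, are given here. Ctsk, a protease of matrix, read 63.3 and 45.8 in E16 ovaries against 3.5 and 5.4 in E13 ovaries (log2 difference 1.78, limma, adjusted p = 0.00284), and it passed with either E16 array left out (0.0232 and 0.0154). Alx1, a homeobox gene of mesenchyme, read 4.1 and 19.5 against 59.4 and 66.9 (-1.57, adjusted p = 0.0149; 0.0539 without E16 replicate 1). Mfap4, a protein of elastic microfibrils, read 474 and 452 in E16 ovaries against 92.6 and 136 in E13 ovaries (1.90, adjusted p = 0.0161), a call lost with either E16 array left out (0.0719 and 0.0878). Gpc3, a membrane proteoglycan, read 458 and 589 against 1328 and 1092 (-1.19, adjusted p = 0.0464), a call also lost with either one left out (0.176 and 0.109). Pbx3, a cofactor of Hox proteins, read 223 and 135 in E16 ovaries against 417 and 382 in E13 ovaries (-1.13, adjusted p = 0.0464), and lost the call without E16 replicate 2 (0.256) and with the chip label period as a block (0.0637).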
